A study of Mus musculus with 12 samples.

Results

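Mouse embryonic stem (ES) cells in which Dcaf11 was knocked down were compared with control ES cells over all genes of the deposited tables. The comparison used 4 of the 12 libraries of the series, 2 of each kind. The control ES cells are labelled wild type and the knockdown ES cells carry a Dcaf11 knock down; both are of the 129Sv strain. The other 8 libraries are from embryos and enter here only in one alternative fit. The reagent used for the knockdown, the number of clones, the culture medium and the use of feeder cells were not given in the sources used here. Nothing in the labels says that the libraries of a group came from separate cultures, so a p-value here covers the spread among the 4 libraries alone, and that spread may be technical. RNA was measured by Smart-seq2, a full-length method that primes on the poly(A) tail, and a gene's level is given as FPKM, mapped fragments scaled to the length of the transcript and to the size of the library. Of 22619 gene symbols, 12264 had at least 1 FPKM in at least 2 of the 4 libraries and were tested on log2(FPKM + 1).

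The protein made from Dcaf11 picks substrates for the CUL4-DDB1 ubiquitin ligase, a complex in which the cullin scaffold and the adaptor DDB1 present a chosen protein for ubiquitination. Reported substrates of this receptor include KAP1 (Trim28), the co-repressor that KRAB zinc finger proteins bring to DNA, the cell cycle inhibitor p21 (Cdkn1a), the histone mRNA binding protein SLBP and the antioxidant regulator NRF2 (Nfe2l2). Zscan4 genes encode SCAN domain zinc finger proteins that are transcribed in two-cell embryos and, in an ES cell culture, in few cells at a time, and they are known for a role in telomere lengthening. The comparison asks what lower Dcaf11 does to the transcripts of ES cells, this programme among them.

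The Dcaf11 transcript, from chr14:56178866-56188902 (plus strand, build mm9), was measured at 6.48 and 4.52 FPKM in the control libraries and at 1.69 and 1.83 FPKM in the knockdown libraries. Both knockdown libraries lay below both controls, as their labels say. The log2 fold change, knockdown minus control on log2(FPKM + 1), was -1.22 ± 0.21 (standard error) with a limma adjusted p of 0.0521, just outside the 0.05 used for a call. All 12 ES cell markers were present in all 4 libraries, the lowest value being 19.9 FPKM for Lin28a in knockdown library 2, and 4 of them fell (Pou5f1, Klf4, Utf1 and Dppa5a, described with the pluripotency genes). Of 20 fibroblast markers, which would show feeder cells, 16 were tested, and their summed level was 202 FPKM in each control library against 116 and 109 FPKM in the knockdown libraries. The highest of them in the controls included Lox, at 66.7 and 64.7 FPKM, and Col1a1, at 42.0 and 43.9 FPKM, while Lum and Fap were at 0 in all 4 libraries. Blood markers summed to between 15.3 and 19.7 FPKM, with Ptprc at 0 throughout. Depth differed between libraries: a gene at 1 FPKM had a mean per-base coverage of 0.907 and 1.08 in the controls and of 0.566 and 0.943 in the knockdown libraries, and the number of reads was not used here. Across the 12264 genes, Pearson's r of log2(FPKM + 1) was 0.958 between the controls, 0.945 between the knockdown libraries and 0.909 to 0.927 between libraries of different groups; these are descriptions across genes, which are not replicates.

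Of the 12264 genes, 764 (6.23%) were called, 318 (2.59%) higher and 446 (3.64%) lower in the knockdown cells. "Rose" and "fell" are used below only of these, and in each of them both knockdown libraries lay on one side of both controls, as they did in 62.5% of all genes. The changes were mostly modest: 108 of the genes that rose and 201 of those that fell passed 2-fold, and 28 and 45 passed 4-fold. The median of all genes was -0.09 on the log2 scale, and scaling the libraries by median of ratios, which moved that median to -0.01, turned the split to 432 higher and 342 lower.

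Leaving out single libraries changed these counts. Without control library 1 limma called 0 genes, with 2028 at an unadjusted p below 0.05, and without control library 2 it called 5. It called 187 without knockdown library 1 and 514 without knockdown library 2. All 764 genes kept their direction in each of these fits, which was fixed in advance because their groups did not overlap. No gene or list named below was therefore called without control library 1, and without control library 2 the gene lists below held 1 call, in the cytoskeletal list. For the main lists below, counts are also given without each knockdown library.

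**Figure D1:**
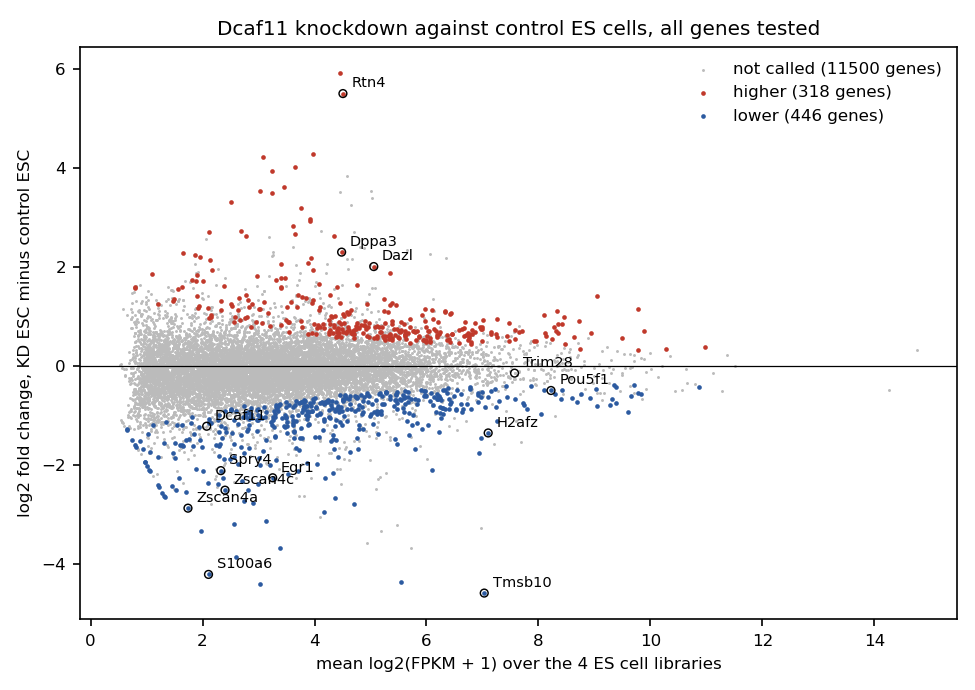
Log2 fold change of each of the 12264 genes tested (vertical axis, knockdown minus control, on log2(FPKM + 1)) against its mean log2(FPKM + 1) over the 4 ES cell libraries (horizontal axis). Red points are the 318 genes called higher, blue points the 446 called lower and grey points the rest; Rtn4 stands near the top, Tmsb10 and S100a6 at the bottom, and the labelled Zscan4a and Zscan4c lie low among weakly expressed genes.

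The Zscan4 family fell. Its 6 copies lie in a cluster on chromosome 7, from chr7:11379590-11384414 for Zscan4a to chr7:11983264-11987667 for Zscan4f (mm9). Summed over the copies, the level was 54.2 and 44.0 FPKM in the control libraries and 5.28 and 4.84 FPKM in the knockdown libraries, that is 49.1 ± 7.24 against 5.06 ± 0.307 FPKM (mean ± SD, n = 2 each), or 9.70-fold lower. In bulk libraries such as these, fewer cells that express the family and less RNA per such cell cannot be told apart. The copies share much of their sequence. RefSeq held the stretch before the start of 4 of the 6, and these are printed to show how alike the members of the family are where transcription begins. Each line gives 250 bases, 5′ to 3′, ending 1 base before the start. Capitals mark the motif TATAAA (searched on the printed strand only) and the motif CCAAT (searched on both strands), with no overlap between them. In GRCm38.p6, a different build from that of the FPKM tables, the stretches are chr7:10905051-10905300 (minus strand) for Zscan4b, chr7:11005495-11005744 (plus) for Zscan4c, chr7:11166149-11166398 (minus) for Zscan4d and chr7:11397665-11397914 (plus) for Zscan4f.
Zscan4b: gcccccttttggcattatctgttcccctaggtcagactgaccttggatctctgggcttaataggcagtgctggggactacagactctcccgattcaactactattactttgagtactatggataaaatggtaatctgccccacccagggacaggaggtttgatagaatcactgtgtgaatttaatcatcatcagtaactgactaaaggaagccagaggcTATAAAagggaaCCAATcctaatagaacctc
Zscan4c: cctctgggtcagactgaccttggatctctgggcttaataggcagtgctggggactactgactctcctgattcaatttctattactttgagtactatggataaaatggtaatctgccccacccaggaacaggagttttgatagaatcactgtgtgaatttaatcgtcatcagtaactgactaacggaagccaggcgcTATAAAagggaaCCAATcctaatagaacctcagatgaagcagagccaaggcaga
Zscan4d: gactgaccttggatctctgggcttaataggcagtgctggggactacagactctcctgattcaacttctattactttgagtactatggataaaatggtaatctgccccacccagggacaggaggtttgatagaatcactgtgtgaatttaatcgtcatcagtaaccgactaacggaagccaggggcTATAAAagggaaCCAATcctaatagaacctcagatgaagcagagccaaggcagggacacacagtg
Zscan4f: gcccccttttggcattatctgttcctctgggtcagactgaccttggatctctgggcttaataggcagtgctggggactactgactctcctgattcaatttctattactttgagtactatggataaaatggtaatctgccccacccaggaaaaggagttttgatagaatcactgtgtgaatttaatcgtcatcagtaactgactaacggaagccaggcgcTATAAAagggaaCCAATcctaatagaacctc
Aligned on TATAAA without gaps, the pairs were 94.7% to 99.6% identical, Zscan4c and Zscan4f being the most alike. Every one of the 4 held both motifs once. Of 32851 RefSeq promoters of the same length, 7.59% held TATAAA on the printed strand and 33.8% held CCAAT on either strand. A match describes the letters and does not show a bound factor.

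The single copies all sat far below the controls. Zscan4c went from 11.8 and 11.4 FPKM in the controls to 1.06 and 1.37 FPKM (log2 fold change -2.51 ± 0.16, limma adjusted p = 0.0187), and Zscan4e from 9.80 and 10.7 to 1.68 and 1.05 FPKM (-2.26 ± 0.20, limma adjusted p = 0.0275). In Zscan4a the controls were at 9.85 and 6.54 FPKM and the knockdown libraries at 0 and 0.521 FPKM (-2.88 ± 0.32, limma adjusted p = 0.0314). The controls agreed closely for Zscan4b and Zscan4d: Zscan4b was at 6.35 and 6.86 against 0.751 and 0.812 FPKM, and Zscan4d at 5.15 and 5.24 against 1.41 and 0.690 FPKM. Zscan4f was the copy not called; its controls stood apart at 11.3 and 3.18 FPKM, and with 0.368 and 0.399 FPKM in the knockdown libraries its log2 fold change was -2.37 ± 0.55 (limma adjusted p = 0.0765). Zscan4a, Zscan4b and Zscan4f passed the filter on low values through the control libraries alone, so the count of 5 of 6 is not set against the 3.64% of all genes that fell. Because near-identical copies can trade reads in counting, the summed level is firmer than the level of any one copy. Without control library 1 or control library 2, limma called 0 copies, with all 6 at an unadjusted p below 0.05. It called 3 without knockdown library 1, 4 without knockdown library 2, and 0, with 3 at an unadjusted p below 0.05, when all 12 libraries were fitted together. The family's median stayed between -2.38 and -2.23 when each library was left out in turn.

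Of 33 two-cell genes outside the Zscan4 cluster, 14 were tested, of which 4 passed the filter only through the controls; 5 fell and none rose, with 2 called without knockdown library 1 and 6 without knockdown library 2. Those 5 were Gm8994, Gm2016, Gm5662, Gm8300 and Gm2022, members of multi-copy families known only by systematic names, among which reads may be shared. Gm8994 was at 14.04 and 13.24 FPKM in the controls and at 1.59 and 2.28 FPKM in the knockdown libraries, and Gm2016 at 13.4 and 15.2 against 2.87 and 3.56 FPKM. Gm8300 was at 0 FPKM in knockdown library 1 and 0.827 in library 2, with controls at 6.69 and 7.21. It was thus among the 4 that passed the filter only through the controls and could only come out lower. The 5 falls are therefore not set against the 3.64% of all genes that fell. The deubiquitinase genes Usp17la, Usp17lb and Usp17lc and the BTB gene Tdpoz3 had log2 fold changes between -1.37 and -1.04 that did not pass. Eif1a, a translation initiation factor gene counted with the two-cell genes, had 139 and 142 FPKM in the controls and 153 and 152 FPKM in the knockdown cells, and Pramel6 had 7.92 and 6.99 against 6.86 and 7.95 FPKM; neither was called. Dux, the activator of many two-cell genes, was at 0.524 FPKM or less in every library and was not tested.

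**Figure D2:**
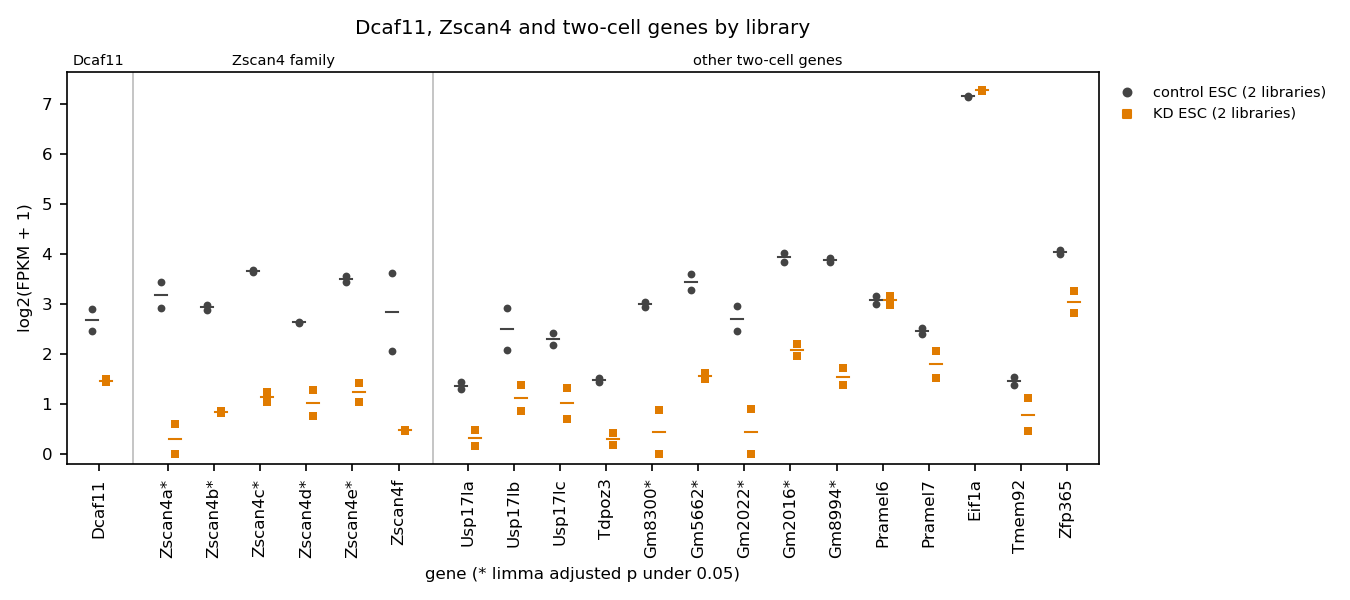
Level of Dcaf11, the 6 Zscan4 copies and the 14 tested two-cell genes in each library, as log2(FPKM + 1), with circles for the 2 control and squares for the 2 knockdown libraries and a bar at each group's mean. Both squares lie under both circles for all 6 Zscan4 copies; Pramel6 and Eif1a show levels of the same height in both groups.

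Of 35 tested genes of telomere maintenance and homologous recombination, limma called 0, with 17 at an unadjusted p below 0.05, where 3706 of all 12264 genes stood. The median of these telomere genes was -0.15 against -0.09 over all genes.

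Of the 4 reported Dcaf11 substrates, 1 was called at the level of its mRNA, where 6.23% of all genes were called. Nfe2l2 rose from 40.9 and 41.5 FPKM to 73.3 and 63.2 FPKM (0.71 ± 0.10, limma adjusted p = 0.0423). It was not called with no filter on low values, with the replicate number as a block or with all 12 libraries in the fit. Trim28 was at 209 and 190 FPKM in the controls and 171 and 189 FPKM in the knockdown libraries (-0.15 ± 0.09, limma adjusted p = 0.338), and the 2 groups were about as close as the libraries within them. Slbp had 31.2 and 30.8 against 41.9 and 36.8 FPKM and did not pass (limma adjusted p = 0.124). Cdkn1a gave no usable comparison, since the controls were at 0.594 and 93.4 FPKM and the knockdown libraries at 18.8 and 112 FPKM. Protein levels were not part of these data. Among 38 genes of the CUL4-DDB1 ligase and its receptors, 2 rose and 2 fell, or 10.5%, where 6.23% of all genes were called. The adaptor Ddb1 itself fell from 65.6 and 63.6 to 37.0 and 40.4 FPKM (-0.73 ± 0.09, limma adjusted p = 0.0352), and the receptor Dcaf15 fell from 13.2 and 11.8 to 6.78 and 6.67 FPKM. Ube2m, the enzyme that passes NEDD8 to cullins, rose from 15.7 and 16.3 to 35.7 and 33.3 FPKM, and Cand1, which exchanges receptors on cullins, rose from 67.8 and 70.6 to 96.6 and 107 FPKM. Of 32 genes of KAP1 and heterochromatin silencing, Rif1 rose and Cbx5, Rcor1 and Hdac1 fell, or 12.5%. Hdac1, a histone deacetylase, went from 30.3 and 33.2 to 14.2 and 16.3 FPKM, and Cbx5, the heterochromatin protein HP1 alpha, from 109 and 110 to 75.7 and 80.5 FPKM. Setdb1, the histone methyltransferase that works with KAP1, was at 19.9 and 12.4 against 14.4 and 14.1 FPKM, with overlapping groups.

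Of 19 tested genes of FGF-ERK signalling and its feedback, 7 fell and none rose; 1 of the 7, Etv4, passed the filter on low values only through the controls. Over all genes 3.64% fell and 2.59% rose. This pathway drives ES cells out of the naive state, and its activity is read from feedback inhibitors and ETS factors that ERK switches on. Spry4, a feedback inhibitor, fell from 8.82 and 10.1 FPKM to 1.36 and 1.46 FPKM (-2.12 ± 0.16, limma adjusted p = 0.0228). The ETS factor gene Etv4 fell from 6.90 and 7.88 to 0.897 and 0.947 FPKM (-2.12 ± 0.17, limma adjusted p = 0.0249), and the zinc finger gene Egr1 from 19.95 and 19.79 to 3.90 and 2.87 FPKM (-2.26 ± 0.16, limma adjusted p = 0.0222). In all 3 the knockdown libraries were close to each other and well under the controls. Smaller falls were seen in Spry2, Etv1, in Dusp6, the ERK phosphatase, and in Map2k2, which encodes the kinase MEK2, with log2 fold changes from -1.37 to -0.94. Etv5, the most highly expressed of the ETS genes in the list, was not called, with 162 and 157 FPKM in the controls and 141 and 145 FPKM in the knockdown cells (-0.16, limma adjusted p = 0.202). The ligand gene Fgf4 was not called, with 123 and 125 FPKM in the controls and 132 and 136 FPKM in the knockdown cells. Without knockdown library 1, 3 of the 19 were called, and without knockdown library 2, 4.

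Immediate early genes, which respond to serum, stress and handling within minutes, showed 5 falls and 1 rise among 16 tested. The shares over all genes were 3.64% lower and 2.59% higher. Junb fell from 21.1 and 21.9 to 8.72 and 9.17 FPKM, and Ier2 from 107 and 93.8 to 59.0 and 53.4 FPKM. Egr1, Cyr61 and Btg2 were the other members that fell. Dusp1, a phosphatase of MAP kinases, went the other way, from 18.99 and 20.98 to 31.9 and 31.8 FPKM. Of these 16 genes 1 fell without knockdown library 1 and 3 without knockdown library 2, and 0 rose. The fibroblast marker sum given above, lower in the knockdown libraries, moved with these genes, and its part in them was not tested. In the LIF-STAT3 list 3 of 19 fell, or 15.8%, against 3.64% of all genes: Klf4, Gbx2 and Junb. Gbx2, a homeobox gene that LIF maintains, fell from 16.1 and 14.8 to 2.58 and 3.66 FPKM (-2.01 ± 0.18, limma adjusted p = 0.0284). Stat3 itself differed widely between its own control libraries, at 21.5 and 3.11 FPKM, with 6.79 and 13.8 FPKM in the knockdown libraries between them. In the Wnt list 2 of 22 fell: Ccnd1, and Ctnnb1, which encodes beta-catenin, at 154 and 131 FPKM in the controls and 43.4 and 23.8 FPKM in the knockdown cells. The Wnt target Axin2 was not called. Of 31 genes of BMP and Nodal signalling 2 were called, both higher, or 6.45%, where 2.59% of all genes rose. These were Lefty1, a Nodal inhibitor that rose from 6.67 and 6.46 to 15.0 and 17.4 FPKM, and Lefty2, which rose from 90.6 and 91.0 to 142 and 150 FPKM.

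Among 30 naive pluripotency genes, 4 rose and 5 fell, and 1 rose and 4 fell without knockdown library 1. With all 4 libraries 30% of these genes were called, where the share over all genes was 6.23%. Pou5f1, the core factor OCT4, fell from 356 and 353 FPKM to 256 and 246 FPKM (-0.50 ± 0.06, limma adjusted p = 0.0352). Klf4 fell from 202 and 201 to 107 and 117 FPKM, and Utf1, a chromatin factor of ES cells, from 112 and 107 to 58.3 and 52.1 FPKM. Dppa5a and Tcl1 fell too, by 0.80 and 0.67 on the log2 scale. Sox2, at 432 and 437 against 459 and 478 FPKM, Nanog, at 354 and 294 against 314 and 327 FPKM, and Zfp42, at 377 and 382 against 367 and 353 FPKM, were not called. The rises were in Dppa3, Jam2, Prdm14 and Nr5a2. Prdm14, a repressor that guards the naive state and the germ line, rose from 26.6 and 27.7 to 50.1 and 45.2 FPKM (0.79 ± 0.10, limma adjusted p = 0.0362), and Jam2, an adhesion molecule, from 108 and 111 to 216 and 209 FPKM. Esrrb shows the limit of these libraries: it was at 255 and 253 FPKM in the controls and at 28.6 and 244 FPKM in the knockdown libraries, so 1 library alone was low. Among 16 genes of the primed or formative epiblast, Lefty1, Lefty2 and Igfbp2 rose and Dnmt3b and Etv4 fell, so both directions were present. These came to 31.25% of the list, against 6.23% of all genes. Of the 16, 2 passed the filter on low values only through the controls, Etv4 among them, and 2 only through the knockdown libraries.

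Over all genes 6.23% were called, and the lineage lists are short. Of 10 primitive endoderm genes tested, 1 fell, the laminin gene Lamc1. Of 7 mesendoderm genes limma called 0, with 3 at an unadjusted p below 0.05. Of 11 neurectoderm genes 1 fell, Gbx2, which stands in the LIF list as well. The trophectoderm list of 15 had 2 rises, of the X-linked homeobox genes Rhox6 (0.797 and 0.793 against 3.90 and 4.94 FPKM) and Rhox9. Both Rhox genes were among 4 members of that list that passed the filter on low values only through the knockdown libraries. The 2 rises are therefore not set against the 2.59% of all genes that rose. Tead4, the factor that starts the trophectoderm programme, fell from 13.6 and 14.1 to 4.95 and 5.69 FPKM.

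Dazl, an RNA binding protein gene of germ cells that DNA methylation keeps off elsewhere, was at 14.1 and 17.3 FPKM in the controls and at 67.3 and 64.3 FPKM in the knockdown libraries (2.01 ± 0.13, limma adjusted p = 0.0187). Dppa3, also called Stella and counted here with the naive pluripotency genes, which regulates DNA methylation in the egg and early embryo, rose from 10.7 and 7.69 to 52.3 and 45.2 FPKM (2.30 ± 0.19, limma adjusted p = 0.0253). Dazl and Dppa3 both showed 2 groups far apart, each with closely spaced libraries. Of 14 tested germline genes silenced by methylation, 3 rose, which are Dazl and the testis tubulin genes Tuba3a (50.9 and 58.7 against 119 and 115 FPKM) and Tuba3b (0.699 and 1.57 against 6.07 and 11.01 FPKM), and 2 fell, which are the retrogenes Rpl10l and D1Pas1. These tubulin genes are near-identical, and the retrogenes resemble expressed parent genes, so the counting may have split their reads. Calls came to 35.7% of the germline list, against 6.23% of all genes. In this list 1 member passed the filter on low values only through the knockdown libraries. The list's median was 0.60, against -0.09 over all genes. That median was 0.31 without control library 1 and 0.82 without control library 2. Without knockdown library 1, 1 rose and 1 fell, and without knockdown library 2, 2 and 2.

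Of 18 DNA methylation enzymes and cofactors 1 was called, a share near the 6.23% over all genes. This was Dnmt3b, a de novo methyltransferase, which fell from 14.8 and 17.4 to 5.99 and 6.54 FPKM (-1.23 ± 0.14, limma adjusted p = 0.0317). Dnmt1, the maintenance enzyme, was at 22.9 and 19.5 against 17.5 and 13.03 FPKM and was not called (limma adjusted p = 0.187). Methylation itself was not measured here. Among 32 imprinted genes, 4 rose (Slc38a4, Usp29, Ddc and Zrsr1) and 3 fell (Mirg, Rian and Plagl1), or 21.9%, where 6.23% of all genes were called. Mirg and Rian are noncoding transcripts of the Dlk1-Dio3 domain; Mirg fell from 15.0 and 15.3 to 5.08 and 4.87 FPKM and Rian from 91.8 and 95.3 to 62.0 and 56.8 FPKM. Slc38a4, an amino acid transporter gene expressed from the paternal copy, rose from 45.5 and 44.3 to 89.2 and 80.9 FPKM. Of the imprinted genes 0 were called without knockdown library 1 and 1 in each direction without knockdown library 2. Of 29 Polycomb genes, Rbbp7 rose and Pcgf1 fell, again a share near the 6.23% over all genes.

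**Figure D3:**
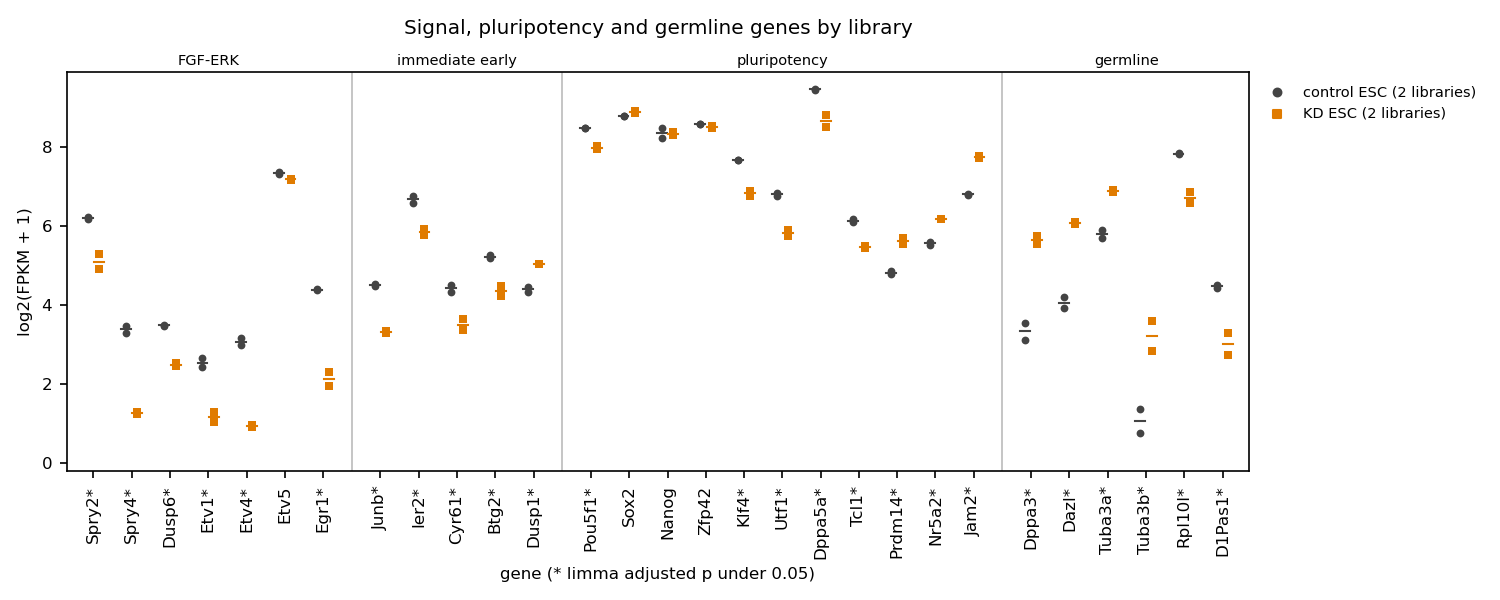
Level of FGF-ERK targets, immediate early, pluripotency and germline genes in each library, as log2(FPKM + 1), with circles for the 2 control and squares for the 2 knockdown libraries, bars at group means and an asterisk on genes that passed the limma test. The squares of Spry4, Etv4 and Egr1 lie well under the circles, those of Dppa3 and Dazl well above, and those of Sox2, Nanog and Zfp42 beside them.

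Histone mRNAs of the replication-dependent kind are made in S phase and mostly lack a poly(A) tail, so a poly(A)-primed library samples them in part. Of 67 tested, 15 fell and 2 rose, or 25.4%, where 6.23% of all genes were called. Their median was -0.45, and their summed level was 41827 and 41265 FPKM in the controls and 32074 and 35313 FPKM in the knockdown libraries. The calls split by histone: 6 of 18 H2B genes, 3 of 12 H3 genes, 5 of 13 H4 genes and 1 of 6 H1 genes fell, while of 18 H2A genes 0 fell and 2 rose. All 12 H3 genes had a log2 fold change below 0, from -0.68 to -0.34, where 7063 of all 12264 genes lay below 0. Hist1h4h, an H4 gene, fell from 1104 and 1046 FPKM to 535 and 589 FPKM (-0.94 ± 0.08, limma adjusted p = 0.0253). Hist1h2bf, the H2B gene with the largest fall, went from 363 and 379 to 174 and 205 FPKM (-0.97 ± 0.10, limma adjusted p = 0.0312). Hist1h2ak, an H2A gene, rose from 1092 and 1130 to 1399 and 1407 FPKM. The clusters hold near-identical copies, so a single copy's value is uncertain. Without knockdown library 1, 6 histone genes fell and 1 rose, and without knockdown library 2, 30 fell and 1 rose.

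The H2B promoters are known for a conserved octamer element, and 3 of the 6 that fell are printed to show it beside the CCAAT boxes. The stretches are the 250 bases before the start from RefSeq (GRCm38.p6), chr13:23574208-23574457 (minus strand) for Hist1h2bf, chr13:23571150-23571399 (plus) for Hist1h2bg and chr13:22035571-22035820 (plus) for Hist1h2bk, 5′ to 3′, with capitals on CCAAT and on the octamer ATTTGCAT, on either strand and with no overlap between them.
Hist1h2bf: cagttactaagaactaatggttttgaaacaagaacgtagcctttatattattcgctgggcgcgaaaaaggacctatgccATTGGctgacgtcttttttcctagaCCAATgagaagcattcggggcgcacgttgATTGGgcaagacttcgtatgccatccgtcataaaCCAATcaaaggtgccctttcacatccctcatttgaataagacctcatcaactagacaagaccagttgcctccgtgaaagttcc
Hist1h2bg: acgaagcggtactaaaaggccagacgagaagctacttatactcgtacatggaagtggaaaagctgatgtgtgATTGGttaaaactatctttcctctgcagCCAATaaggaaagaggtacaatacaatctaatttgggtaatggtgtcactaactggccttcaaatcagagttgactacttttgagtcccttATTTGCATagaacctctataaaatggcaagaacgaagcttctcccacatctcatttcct
Hist1h2bk: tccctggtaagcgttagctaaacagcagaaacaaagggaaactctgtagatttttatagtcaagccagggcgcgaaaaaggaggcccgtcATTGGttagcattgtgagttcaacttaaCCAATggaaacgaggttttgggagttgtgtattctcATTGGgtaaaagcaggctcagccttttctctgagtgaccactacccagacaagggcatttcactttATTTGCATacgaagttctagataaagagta
Of the 18 H2B genes tested, 15 were matched in RefSeq; all 15 held CCAAT and 7 held ATTTGCAT in a listed promoter (1 gene, Hist1h2be, has 2, of which 1 holds it), against 33.8% and 1.60% of all 32851 promoters. Among the 6 that fell, 6 held CCAAT and 2, Hist1h2bg and Hist1h2bk, held ATTTGCAT in this window. Hist1h2bg went from 619 and 601 to 357 and 419 FPKM and Hist1h2bk from 1129 and 1099 to 696 and 807 FPKM, so the printed genes fell with and without the octamer in this window.

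Of 11 tested genes for variant and linker histones outside the replication-dependent clusters, 3 fell and 1 rose, or 36.4%, against 6.23% of all genes. H2afz fell from 221 and 216 to 77.0 and 93.5 FPKM (-1.36 ± 0.11, limma adjusted p = 0.0264), H2afx from 795 and 802 to 479 and 530 FPKM, and H2afj by 0.66 on the log2 scale. H3f3b, one of the genes for histone H3.3, rose from 254 and 253 to 471 and 446 FPKM (0.85 ± 0.06, limma adjusted p = 0.0225).

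Of 45 DNA replication genes 6 fell and none rose: Mcm2, Mcm4, Mcm5 and Mcm6, subunits of the replicative helicase, Cdt1, which loads it, and Rfc2, a subunit of the clamp loader. Mcm2 went from 104 and 106 to 58.5 and 57.2 FPKM (-0.85 ± 0.07, limma adjusted p = 0.0270), and Cdt1 from 63.9 and 62.5 to 37.7 and 31.8 FPKM. The list's median was -0.30, and 2 replication genes were called without either knockdown library in turn. With TPM 3 replication genes fell, with median-of-ratios scaling 3 and with quantile normalization 5. Their median was then -0.28, -0.23 and -0.24 in that order. Of 26 G1 regulators 5 fell: the D cyclins Ccnd1, Ccnd2 and Ccnd3, the E cyclin Ccne1 and the inhibitor Cdkn1b, where 3.64% of all genes fell. Of these regulators limma called 0 without knockdown library 1, with 13 at an unadjusted p below 0.05, and 2 without knockdown library 2. Ccnd2 fell from 11.91 and 10.97 to 3.75 and 4.21 FPKM and Ccnd3 from 148 and 129 to 79.7 and 80.6 FPKM. Among 40 genes of mitosis and the kinetochore, 1 fell, the mitotic cyclin Ccnb1, from 81.3 and 80.4 to 53.1 and 56.3 FPKM.

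**Figure D4:**
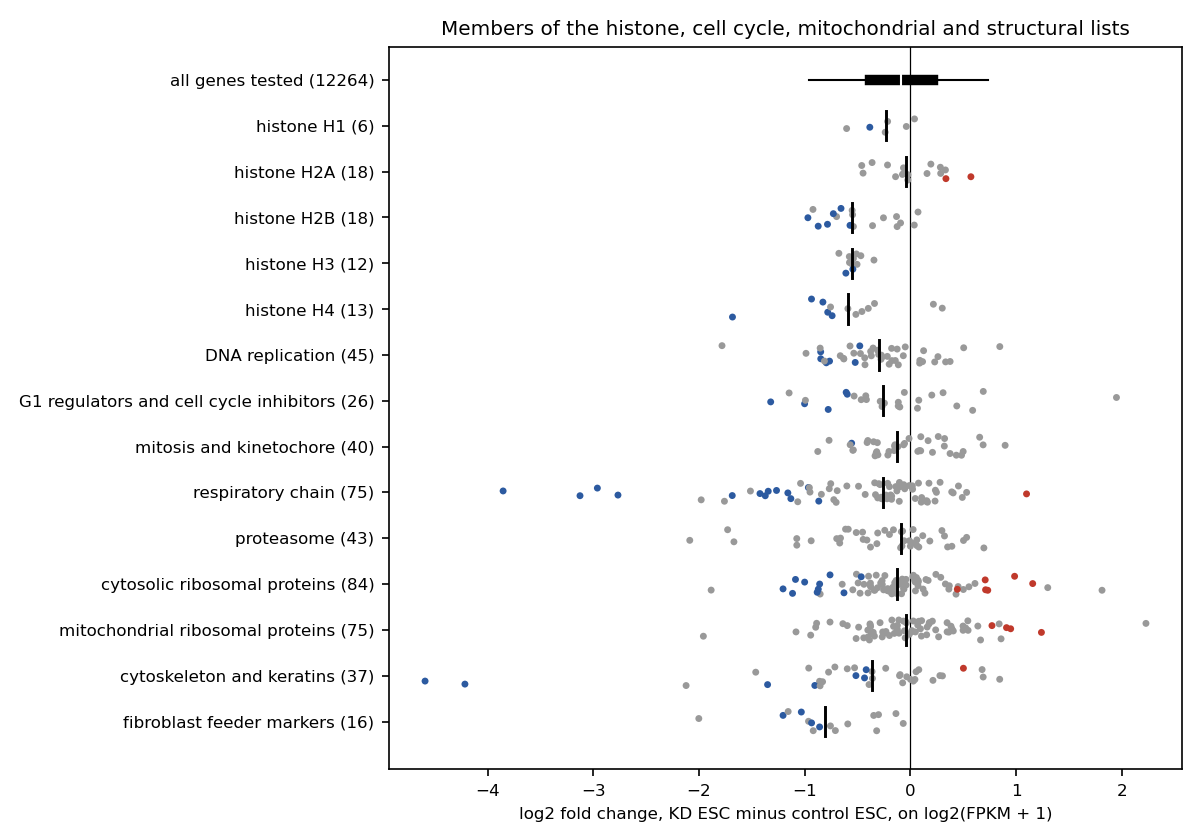
Log2 fold change of each member (points; horizontal axis, knockdown minus control on log2(FPKM + 1)) of the histone classes and of the cell cycle, mitochondrial, ribosomal and structural lists, with blue for called lower, red for called higher and a black bar at the median; in the top row the thick line runs from percentile 25 to 75 of all genes and the thin line from percentile 5 to 95. All 12 H3 points lie left of 0 and the H2A points on both sides.

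Respiratory chain genes fell in 13 of 75 cases and rose in 1, or 18.7%, against 6.23% of all genes. The falls gathered in complex V, the ATP synthase, with 6 lower and 1 higher of 15, and complex IV, cytochrome c oxidase, with 3 lower of 10, while complex I, the largest, had 2 lower of 36; complex III had 2 of 9 and complex II 0 of 4. No difference between complexes was tested. Atp5g1, a gene for the rotor ring of ATP synthase, fell from 46.5 and 51.9 FPKM to 5.85 and 5.06 FPKM (-2.96 ± 0.13, limma adjusted p = 0.00841), and Atp5g3, another gene for the same subunit, from 50.9 and 60.9 to 20.4 and 21.3 FPKM. Atp5l fell from 24.9 and 25.3 to 2.32 and 1.69 FPKM. Cox5a fell from 16.5 and 20.5 to 1.33 and 2.48 FPKM, and Uqcr11, a small subunit of complex III, from 20.6 and 23.6 to 0 and 1.55 FPKM. Atp5h, of the stalk of ATP synthase, rose from 53.7 and 54.2 to 130 and 105 FPKM. Several of these genes are short or have processed pseudogenes, which can share reads with them. The median of the list was -0.26; it was -0.14 without knockdown library 1, with 6 lower and 1 higher, and -0.45 without knockdown library 2.

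Ribosomal protein genes went both ways. Of 84 cytosolic ones 6 rose and 10 fell, and their sum was 17195 and 16825 FPKM in the controls against 17029 and 16737 FPKM in the knockdown cells. Rpl14 rose from 685 and 797 to 1235 and 1186 FPKM, and Rplp1, of the stalk, fell from 846 and 897 to 520 and 508 FPKM. Of 75 mitochondrial ribosomal protein genes, 4 rose, or 5.33%, where 2.59% of all genes rose, and 0 fell, where 3.64% of all genes fell. Mrpl12 rose from 46.7 and 51.4 to 97.8 and 93.1 FPKM. Of 43 proteasome genes limma called 0, with 15 at an unadjusted p below 0.05. Among 40 splicing genes 2 rose and 5 fell, or 17.5%, against 6.23% of all genes. Srsf1, an SR protein that selects splice sites, was at 213 and 210 FPKM in the controls and 3.82 and 20.9 FPKM in the knockdown libraries (-4.37 ± 0.74, limma adjusted p = 0.0497), both low and far apart from each other.

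Of 37 cytoskeletal genes 7 fell and 1 rose, against 3.64% and 2.59% of all genes. Of the 37 tested, 2 passed the filter on low values only through the controls and 2 only through the knockdown libraries. S100a6, of the former, is counted among the 7 falls although it could only come out lower. Tmsb10, thymosin beta 10, which holds actin monomers, was at 638 and 644 FPKM in the controls and at 25.5 and 25.8 FPKM in the knockdown cells (-4.59 ± 0.07, limma adjusted p = 0.000797), the largest fall of all genes tested. S100a6, a calcium binding protein gene, was at 15.1 and 20.4 FPKM in the controls and listed at 0 in both knockdown libraries. Actb, beta actin, fell from 2222 and 2119 to 1574 and 1638 FPKM, and Tagln, transgelin, from 15.9 and 18.7 to 6.48 and 5.87 FPKM. Tmsb4x, Cfl1 and Flna fell and Cnn3 rose. In this list 2 fell and 0 rose without knockdown library 1, and 7 fell and 0 rose without knockdown library 2. Of 30 matrix and adhesion genes 6 fell: Cd44, Gpc4, Itga5, Lama5, Lamc1 and Vim. Over all genes 3.64% fell; limma called 0 of the 30 without knockdown library 1, with 16 at an unadjusted p below 0.05, and 1 without knockdown library 2. Cd44, a hyaluronan receptor, fell from 7.52 and 7.45 to 2.74 and 2.02 FPKM, and Gpc4, a glypican, from 21.4 and 23.1 to 10.8 and 10.5 FPKM. Fibroblast markers moved with them: 4 of the 16 tested fell (Col1a2, Fbln2, Lox and Loxl1), all 16 had a log2 fold change below 0, and the median was -0.81; 2 were called without either knockdown library in turn. Over all genes, 7063 of 12264 had a log2 fold change below 0. Of the 16 fibroblast markers, 2 passed the filter on low values only through the controls, so their direction was fixed in advance. Lox, which cross-links collagen, fell from 66.7 and 64.7 to 33.3 and 34.5 FPKM, and Col1a2 from 21.5 and 21.3 to 9.68 and 7.86 FPKM. The part of fibroblast RNA in the cytoskeletal and matrix values was not tested.

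The largest changes belonged to no single list. Rtn4, the reticulon also called Nogo, went from 2.83 and 1.99 to 171 and 135 FPKM (5.50 ± 0.19, limma adjusted p = 0.00518). Tcea1, an elongation factor of RNA polymerase II, rose from 2.81 and 2.36 to 65.7 and 71.5 FPKM, and Glo1, glyoxalase 1, from 2.18 and 2.05 to 51.0 and 47.9 FPKM. Each of these was almost absent from the controls and plainly present in both knockdown libraries. Gpatch4, Arpc4, Golga7, Jagn1, Rab6a and Dyrk1a were also among the 10 largest rises, with log2 fold changes from 2.97 to 3.94; 1810058I24Rik, with 4.22, was the largest with a systematic name. Among the falls, Zfp518b, a zinc finger gene, went from 35.9 and 37.2 to 0.765 and 0.756 FPKM (-4.41 ± 0.13, limma adjusted p = 0.00421), after Tmsb10 and before Srsf1, S100a6 and Uqcr11. Vmn1r47, named as a vomeronasal receptor gene, fell from 18.8 and 15.0 to 0.566 and 1.401 FPKM, and 2610306M01Rik by 3.67 on the log2 scale.

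Differences of over 4-fold also occurred between libraries of the same group. Of 5575 genes with a mean of at least 10 FPKM, 109 differed by over 4-fold (on FPKM + 1) between the 2 controls and 112 between the 2 knockdown libraries, while 37 were called and passed 4-fold between the groups. Spp1, osteopontin, is an example: it was at 376 and 407 FPKM in the controls and at 2.78 and 437 FPKM in the knockdown libraries, and was not called.

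**Figure D5:**
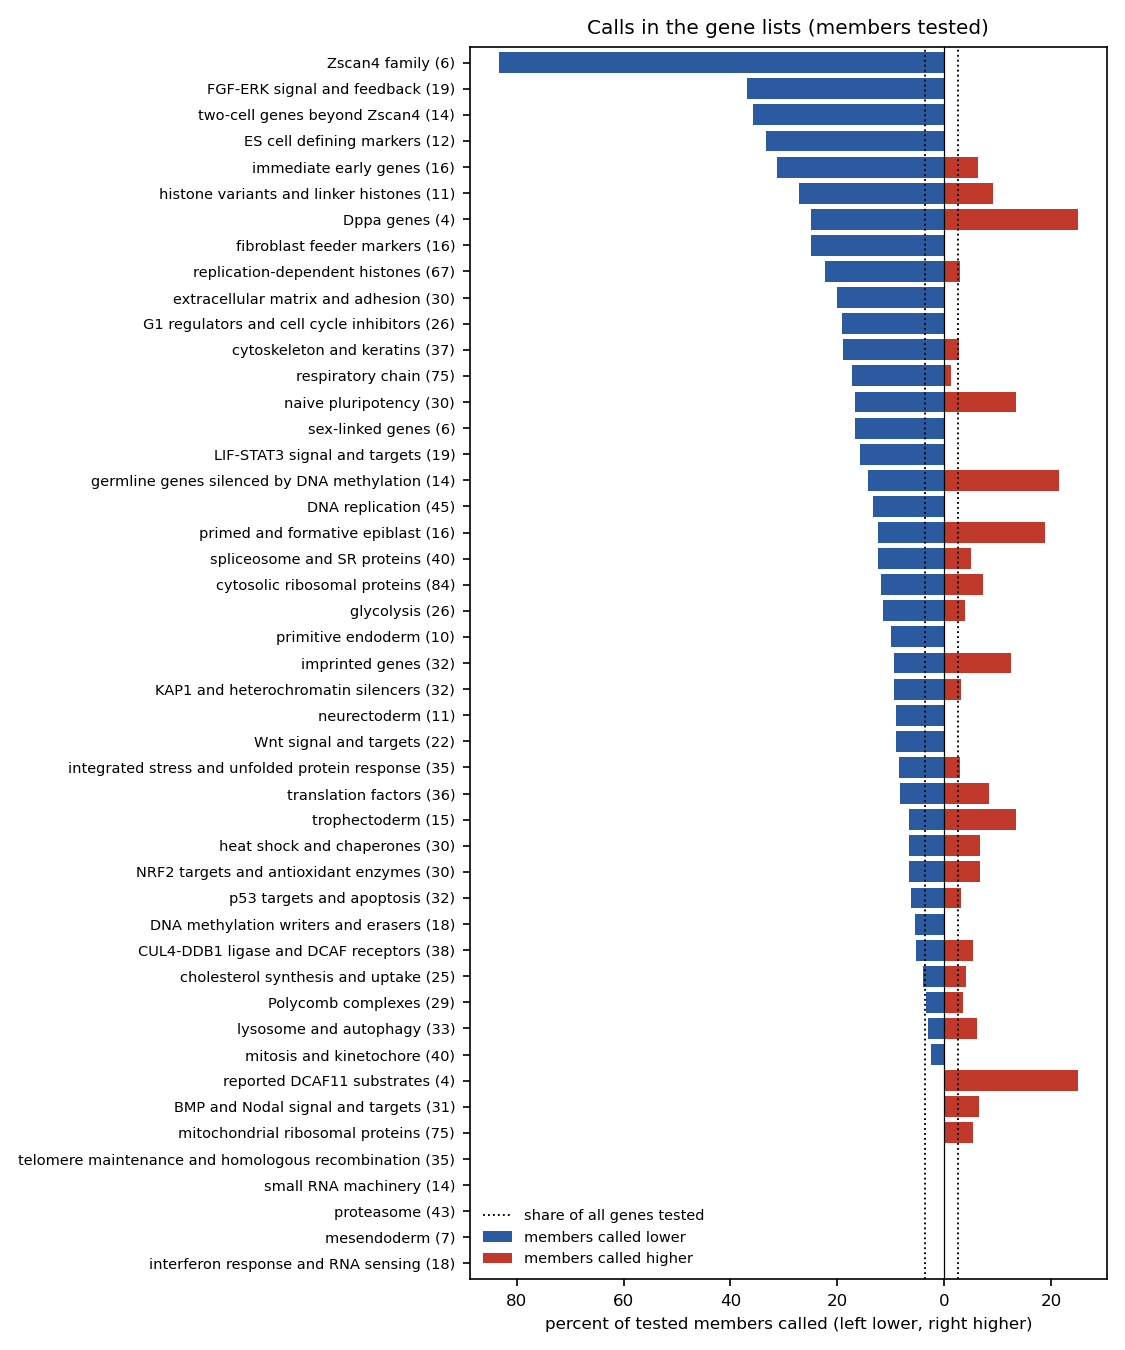
Share of the tested members of each gene list (number tested in brackets) called lower (blue, left) or higher (red, right) in the knockdown cells; dotted lines mark the shares over all 12264 genes, 3.64% lower and 2.59% higher. The bars include members that passed the filter on low values only through 1 group. Through the controls these were 3 of 6 in the Zscan4 family, 4 of 14 among the other two-cell genes and 1 of 19 in the FGF-ERK list. They were 2 each of 37 cytoskeletal, 16 fibroblast, 16 primed epiblast and 7 mesendoderm genes, and 1 in several other lists. Through the knockdown libraries they were 4 of 15 trophectoderm, 2 of 37 cytoskeletal and 2 of 16 primed epiblast genes, and 1 in some other lists.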

How the data were processed

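Poly(A) RNA of 2 control and 2 Dcaf11 knockdown ES cell libraries was measured by Smart-seq2. The submitters' processing notes name STAR (listed with version 0.6.0), StringTie, DESeq2 and the build mm9, without saying which step each served. The authors deposited 1 table per library with FPKM, TPM and per-base coverage for each gene row, per the file headers. Read counts were not used here.

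FPKM values were summed per gene symbol; 47 symbols stood at more than 1 locus. Rows without a gene name (227 to 242 per ES cell library, 1.07% to 1.19% of the FPKM) were left out. Genes with at least 1 FPKM in at least 2 of the 4 libraries were tested with limma 3.58.1 (R 4.3.3; eBayes with a trend on the mean) on log2(FPKM + 1), knockdown against control. Calls used a Benjamini-Hochberg adjusted p under 0.05 over all genes tested. Fold changes are on the log2(FPKM + 1) scale, where the added 1 shrinks those of weakly expressed genes. The fit was tested on simulated data. Python 3.11.15 and matplotlib 3.10.9 made the tables and figures. Promoters were read from RefSeq.

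The genes and 48 gene lists were chosen with earlier results of these data known. Genes were named by rule: Dcaf11, its reported substrates and Zscan4; the 10 largest rises and falls with ordinary names and the largest with a systematic name; and of each list the 3 with the smallest p and the 2 with the highest FPKM. Other members were named to complete a count, or as examples of the spread between libraries, after their values were seen. Some results that the rule would name are not reported here. Alternatives were another pseudocount, other filters, TPM, 2 other scalings, library weights, all 12 libraries, a replicate block, a fold threshold and leaving out each library.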

Additional observations from a re-analysis of the deposited data

How the results depend on the processing

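The 764 calls, 318 higher and 446 lower, stayed within 1.5 times of those counts with a pseudocount of 0.1 (599), a filter of 5 FPKM (967 of 8318 tested), TPM (678), median-of-ratios scaling (774), quantile normalization (834) and limma arrayWeights (761). They dropped to 313 (139 higher, 174 lower) with no filter on low values, where 17153 genes shared the adjustment, to 179 (53 and 126) with all 12 libraries in the fit and to 22 (12 and 10) when limma treat asked for more than 2-fold; the cause of the drop with 12 libraries was not tested. Leaving out 1 library gave between 0 and 514 calls, 0 to 154 higher and 0 to 360 lower, and then the lone library of a group is assumed to vary like the other group. All 764 kept their direction in every one of these fits in which they were tested. For fits on the same FPKM values this was fixed in advance, because the groups did not overlap in these genes. It was not fixed with TPM, median-of-ratios scaling or quantile normalization. The split of higher against lower calls was 41.6% higher with FPKM, 55.8% with median-of-ratios scaling and 50.6% with quantile normalization.

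With the replicate number as a block, 26 genes were called, 15 higher and 11 lower, all of them among the 764 and none of them a Zscan4 copy; treat called no Zscan4 copy either, with all 6 at an unadjusted p below 0.05 in both fits. Across genes, the deviations of same-numbered libraries from their group means correlated at -0.013. This value is the same for both pairs by construction, because the deviations within a group mirror each other. Being a description across genes, which are not replicates, it cannot decide whether the numbers mark a pairing.

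Some genes that were not called changed sign. Nanog went to 0.036 with TPM, 0.074 with median-of-ratios scaling and between -0.142 and 0.124 when 1 library was left out; Pramel6 to 0.032, 0.063 and 0.098 with TPM, median-of-ratios and quantile scaling and between -0.103 and 0.084 with 1 library less; Zfp42 to 0.0063 with median-of-ratios scaling. With 1 library left out, Cdkn1a ran from -0.995 to 4.89, Setdb1 from -0.457 to 0.179, Spp1 from -6.70 to 0.157 and Stat3 from -1.07 to 1.38. Of the 142 called genes named here, 123 stayed called with TPM, 125 with median-of-ratios scaling and 16 with the block; the causes were not tested. Depth in reads was not used here, and a gene at 1 FPKM has a per-base coverage of only 0.566 to 1.08.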

Other observations

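Further gene groups are set against the 6.23% of all genes that were called. Of 35 genes of the integrated stress and unfolded protein responses, 1 rose and 3 fell, or 11.4%. Nars, the asparaginyl-tRNA synthetase, rose from 4.93 and 4.10 FPKM in the control libraries to 46.1 and 36.2 FPKM in the knockdown libraries (2.93 ± 0.17, limma adjusted p = 0.0153). Cth, which makes cysteine from cystathionine, fell from 9.47 and 8.65 to 1.22 and 2.36 FPKM, and the calcium binding chaperone Calr from 252 and 230 to 152 and 150 FPKM. The groups did not overlap for any of these. Of 30 NRF2 targets and antioxidant genes, Nfe2l2 itself and Cat, catalase, rose, while Nqo1, a classical NRF2 target, fell from 17.9 and 18.3 to 9.41 and 9.37 FPKM and Prdx3, a mitochondrial peroxidase, from 17.8 and 19.2 to 6.17 and 7.60 FPKM. Of 30 heat shock and chaperone genes 2 rose and 2 fell, or 13.3%. Hspa4, a chaperone of the HSP110 family, rose from 98.2 and 96.2 to 169 and 160 FPKM. Of 32 p53 targets and apoptosis genes 2 fell: Bid, a death agonist of the BCL2 family, from 38.8 and 49.5 to 15.1 and 15.4 FPKM, and Btg2.

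Of 26 glycolysis genes 1 rose and 3 fell, or 15.4%: the glucose transporter gene Slc2a3 fell from 497 and 478 to 302 and 316 FPKM, Pgam1 and Ldhb fell, and Aldoa rose. In the lysosome and autophagy list of 33, the autophagy receptor Sqstm1 rose from 87.2 and 84.0 to 153 and 162 FPKM, Ulk1 rose, and Tfeb, a regulator of lysosome genes, fell from 17.5 and 15.3 to 6.79 and 6.21 FPKM. The cholesterol list of 25 had 1 rise (Fdps) and 1 fall (Sc4mol), and the translation factors 3 of each among 36, or 16.7%. limma called 0 of 18 interferon response genes, with 5 at an unadjusted p below 0.05, and 0 of 14 small RNA pathway genes, with 5.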
